A study of Mus musculus with 3 samples.

Results

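The genes described here encode the proteins of the cytosolic ribosome. They were taken by symbol, as every gene whose name starts with Rpl or Rps followed by a digit, without processed pseudogenes and without the Rps6k kinases, together with Rplp0, Rplp1, Rplp2 and Rpsa. The rule found 86 of the 32285 genes in the files. Of these, 77 are core ribosomal proteins, 31 of the small and 46 of the large subunit, 8 are paralogues or variant copies, and 1, Rps19bp1, encodes a nucleolar protein that binds Rps19 and is not a ribosomal protein itself. The members lie on 19 chromosomes, and 30 of them hold 58 small nucleolar RNA genes within their gene bodies. A few genes for ribosomal proteins, such as Fau and Rack1, carry other symbols and fall outside the rule. Gene coordinates are those of GENCODE M21 on GRCm38 (mm10).

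Single cells were taken from the hypothalamus of male mice aged 8 weeks. PF was the control with matched food intake, HS was the heat-exposed state, and QS was the state of recovery after heat, with 1 library for each. The tissue was dissociated with collagenase II. For strain, temperature, length of exposure and recovery, and mice per library, the sources used here give nothing, and RT mice were not analysed here. Depth was similar, with 100727912 UMIs (unique molecular identifiers, each standing for 1 captured transcript) over 12836 barcodes for PF, 103891747 over 12510 for HS and 93295920 over 11720 for QS. Between 37 and 51 barcode sequences occurred in both libraries of a pair.

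Each ribosome holds 1 copy of nearly every one of these proteins, so their genes are known to be expressed together at high and similar levels, and in brain tissue their messages are found in every cell type. Many of their messages begin with a C followed by a run of pyrimidines, the terminal oligopyrimidine tract, through which mTOR and LARP1 are known to control their translation. Several members also have roles of their own, such as Rpl5 and Rpl11, which can bind MDM2 and so stabilise p53.

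The sequences that follow show the shortest coding regions and the start sites of members that stood apart between libraries. Rpl41 and Rpl39 have very short open reading frames, shown from GENCODE M21 transcripts with start and stop codons in capitals.
Rpl41: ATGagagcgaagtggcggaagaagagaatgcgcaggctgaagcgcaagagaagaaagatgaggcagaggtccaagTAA
Rpl39: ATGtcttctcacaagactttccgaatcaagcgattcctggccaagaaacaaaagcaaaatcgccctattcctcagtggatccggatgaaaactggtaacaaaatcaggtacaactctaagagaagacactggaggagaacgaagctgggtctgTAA
These hold 78 and 156 bases with the stop codon. Coding lengths in the following exclude it, and come to 75 bases for Rpl41 and 153 for Rpl39, where Rpl4, the member with the longest, has 1257.

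Start sites were found for 66 of the 86 members in the RefSeq promoter table (GRCm38.p6). The windows below run 5′ to 3′ over 30 bases on the strand of the gene, with the start at base 16, and a run of at least 5 pyrimidines that opens with C at the start is in capitals. They are shown because Rps27, Rpl38, Rps21, Rps28 and Rpl37 were among the members that differed most between HS and QS, and because Rps27rt is a near copy of Rps27.
Rps27: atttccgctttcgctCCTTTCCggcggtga
Rps27rt: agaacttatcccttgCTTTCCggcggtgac
Rpl38: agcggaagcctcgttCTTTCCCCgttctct
Rps21: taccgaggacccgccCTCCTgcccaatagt
Rps28: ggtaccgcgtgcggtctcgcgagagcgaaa
Rpl37: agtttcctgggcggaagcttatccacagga
The windows lie at chr3:90213634-90213663 (minus strand) for Rps27, chr9:114982725-114982754 (minus) for Rps27rt, chr11:114668565-114668594 (plus) for Rpl38, chr2:180257364-180257393 (plus) for Rps21, chr17:33824548-33824577 (minus) for Rps28 and chr15:5116598-5116627 (plus) for Rpl37. A tract of this kind opened at the listed start in 13 of 66 members (19.7%), against 668 of 26742 promoters of all genes (2.5%). Within 10 bases of the start it was present in 56.1% of members and 30.8% of all promoters. CCGGAAG, a form of the ETS motif, was found on either strand from 100 bases before to 50 after the start in 28.8% of members and 6.94% of all, AAGATGGC, a form of the YY1 motif, in 7.58% and 1.86%, and TATAAA in 9.09% and 7.27%. These are matches of letters in the listed window. The listed start need not be the start used in these cells.

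Cells were placed in classes by marker genes, and a class is called by its markers with "-like". The gate kept 10269 of 12642 filtered cells in PF, 9931 of 12302 in HS and 9563 of 11509 in QS. Neurons, the defining cells of the labelled tissue, were nearly absent: there were 11 neuron-like cells in the PF library, 17 in the HS library and 23 in the QS library, too few to describe. Endothelial-like cells were the most numerous class in all 3 libraries (4123, 3867 and 3327 cells).

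Ribosomal protein genes made up 6.21% of all UMIs in PF, 5.96% in HS and 5.6% in QS. These totals also depend on the mix of classes, for which they were not adjusted. Of the filtered cells in PF, HS and QS, 7.97%, 11.3% and 11.9% were astrocyte-like and 7.23%, 6.87% and 10.7% oligodendrocyte-like. Endothelial-like cells made up 32.6%, 31.4% and 28.9%. Between cell classes the ribosomal protein share ranged far more widely than between libraries. T or NK cell-like cells stood highest, at 21.6% in PF (31 cells), 19% in HS (40 cells) and 21.7% in QS (40 cells), and B cell-like cells followed with 18.5%, 18.8% and 20%. These ranges overlapped, so the order of the lymphoid classes was not settled. Monocyte or dendritic cell-like cells came next at 14.6%, 15.3% and 17.2%, below both lymphoid classes. All 3 of these classes held at most 41 cells per library.

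Among the classes of resident cells, border-associated macrophage-like, fibroblast-like, microglia-like, endothelial-like and vascular smooth muscle-like cells held between 5.39% and 7.89%. Most of their ranges overlapped, but endothelial-like cells (7.05%, 7.22% and 7.16% in PF, HS and QS) lay above vascular smooth muscle-like cells (6.71%, 6.81% and 6.79%) in all 3 libraries. Fibroblast-like cells were the least even, at 7.49% in PF, 7.89% in HS and 5.39% in QS, where they numbered 42 cells against 253 in each of the others. Ependymal-like cells (4.83%, 4.85% and 4.87%) lay just above tanycyte-like cells (4.54%, 4.74% and 4.48%). Pericyte-like cells followed with 3.87%, 3.92% and 3.9%, and oligodendrocyte-like cells with 3.51%, 3.65% and 3.18%.

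Astrocyte-like cells had the lowest share of the 13 classes in each library, 1.2% (1.19 to 1.21) in PF, 1.05% (1.05 to 1.06) in HS and 0.88% (0.872 to 0.888) in QS. Intervals here and further on are exact 95% intervals and cover counting error only. Endothelial-like cells held 5.86 times the astrocyte-like share in PF, 6.85 times in HS and 8.13 times in QS, and even oligodendrocyte-like cells held 2.91, 3.46 and 3.62 times. The low share was a property of most cells in the class rather than of a few. The share of the median cell was 1.01%, 0.92% and 0.747%, and 48.9%, 56.7% and 71.6% of the cells lay under 1%, where at most 2.4% of endothelial-like, microglia-like, ependymal-like, oligodendrocyte-like, pericyte-like and vascular smooth muscle-like cells did. It held in each range of depth with at least 20 cells, where the astrocyte-like share lay between 0.859% and 1.21%. Of the 82 members measured, 80 had a CPM (UMIs per 1000000 UMIs of the class) in every astrocyte-like library below every library of the other 6 classes with at least 100 cells, where 11% of all 8539 measured genes did. The exceptions were Rpl7l1 and Rps19bp1. Oligodendrocyte precursor-like cells, with 8, 17 and 5 cells in PF, HS and QS, were too few to be among the 13 classes. Their median cell held 1.02%, 0.943% and 0.82%, near the astrocyte-like values, and their class sums 1.27%, 1.95% and 1.76%. Fewer ribosomal protein molecules per cell and more of other RNA cannot be told apart in such a share. Mitochondrial UMIs made up 5.26%, 4.34% and 4.59% of the astrocyte-like total and the nuclear transcript Malat1 9.51%, 10% and 11%, the highest Malat1 shares of the 7 classes. Their part in the low share was not tested.

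**Figure D1:**
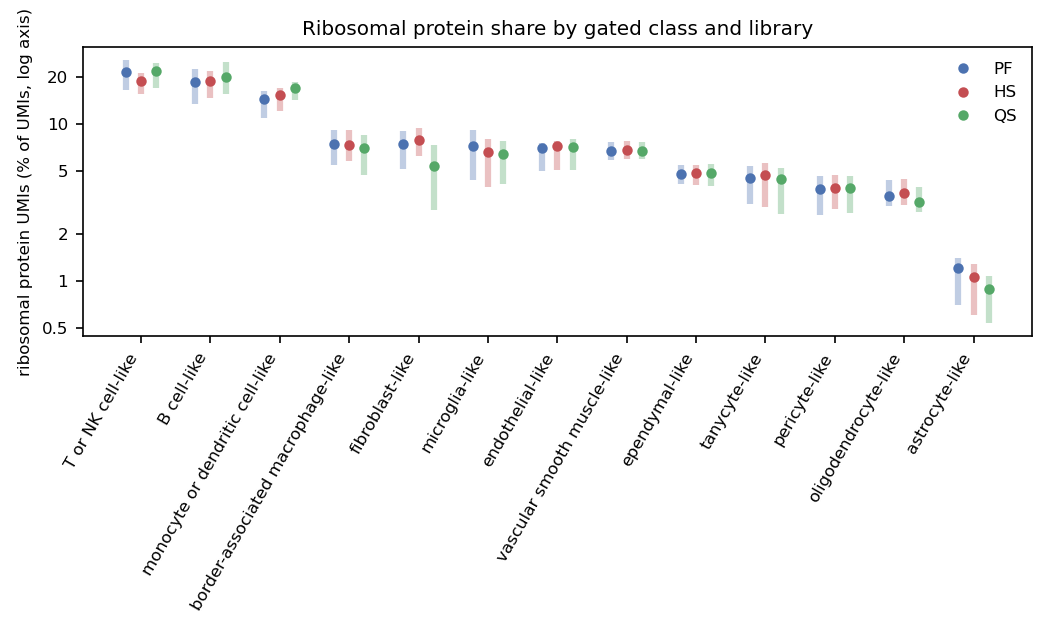
Ribosomal protein UMIs as a percent of all UMIs (log axis) for 13 gated cell classes in PF, HS and QS. Points are shares of the class sum and bars span the middle 50% of cells; the 3 lymphoid or blood-derived classes on the left lie above 14%, and astrocyte-like cells lie at 0.88% to 1.2%.

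Levels of single members spanned a wide range, although 3′ counting takes 1 UMI per captured molecule whatever the length of the transcript. Over the 7 classes of at least 100 cells a library, members with the highest mean levels included Rplp1, an acidic protein of the stalk that recruits elongation factors (chr9:61913284-61914542, minus strand, 1194 CPM), Rpl41 (1180), Rpl13 (1138) and Rps24 (1002). The lowest among the measured members were Rpl7l1 (49.1), Rps27l (146.8), Rpl36al (171), Rpl31 (181) and Rpl4 (205.6). Rpl41 and Rpl31 are small proteins of the large subunit, Rpl31 beside the exit of the peptide tunnel. Rps19bp1 stood at 23 CPM and did not reach the minimum of 20 CPM, which a pair of libraries needed to be compared, in every class. Of the 86 members, 81 passed this minimum in all 7 classes, and Rpl3l, Rpl10l, Rpl39l and Rps27rt passed it in none.

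The paralogues differed widely. Rpl22l1, which can take the place of Rpl22 in the large subunit, stood at 353 CPM against 387 for Rpl22. Rps27l, a p53 target in the literature, stood at 146.8 CPM against 570 for Rps27, and Rpl36al at 171 against 235 for Rpl36a. Rpl39l stood at 0.946, 0.763 and 0.99 CPM in the PF, HS and QS libraries and Rpl3l, known from muscle, at 1.245, 1.51 and 1.6. Rpl10l, known from the testis, had 0 UMIs in PF, 5 in HS and 0 in QS. Rps27rt stood at 16.4, 15.9 and 10.8 CPM. Its transcript shares 292 of its 325 stretches of 50 bases with Rps27 (89.8%), so the division of counts between these 2 genes is uncertain, whereas the other 7 copies shared 0 such stretches with their parent genes.

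Beyond the overall level, the make-up of the ribosomal protein RNA differed between classes. To see this apart from the total, each member was given a family-scaled level, its UMIs per 1000000 ribosomal protein UMIs of the class and library. On this scale 39 of 82 members had 1 class whose lowest library lay above every library of the other 6 classes. No share over all genes was computed on this scale. On plain CPM it was 36 of 82, a smaller part than the 74.2% of all 8539 measured genes. By class, the 39 were divided as 10 in microglia-like, 9 in ependymal-like, 6 in astrocyte-like, 5 in oligodendrocyte-like and 3 each in endothelial-like, pericyte-like and vascular smooth muscle-like cells.

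Microglia-like cells held the most Rps12, a protein at the beak of the small subunit (chr10:23785183-23787275, minus strand). Its family-scaled level was 25890 in PF, 25830 in HS and 25760 in QS microglia-like cells. The next class, endothelial-like, stood at 17920, 18290 and 17830, and ependymal-like cells were lowest at 9827, 9549 and 9613. In CPM, Rps12 stood at 1871, 1706 and 1666 in microglia-like and at 474, 463 and 468 in ependymal-like cells. The spread between libraries was small beside the gap between these classes.

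The stalk proteins followed the same class in part. The family-scaled level of Rplp1 was 37080, 38870 and 39450 in microglia-like cells and 26540 or below in each of the other 6 classes. Rplp0, the stalk base, was also highest in microglia-like cells (1123, 1043 and 1109 CPM in PF, HS and QS, against 810 or less elsewhere). Rplp2, which pairs with Rplp1, was not: its family-scaled level was highest in ependymal-like cells (13350, 13290 and 13260), where its CPM was 644 in PF, 644 in HS and 646 in QS, against 721, 714 and 650 in microglia-like cells. The 3 parts of 1 stalk complex were thus not at their highest family-scaled level in the same class.

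Oligodendrocyte-like cells held the most Rpsa, the laminin receptor protein of the small subunit (chr9:120127689-120132369, plus strand), at family-scaled levels of 19910, 19670 and 21320, where no other class passed 14840. They also held the most Rps27a, which is made as a fusion with ubiquitin (chr11:29545846-29548109, minus strand), at 25720, 25810 and 27410, with 17830 the most in any other class. Rpl36al, a paralogue of Rpl36a, stood at 5494, 5479 and 5903 there and overlapped with astrocyte-like cells at 4875, 5920 and 5211. In CPM these 3 members were not at their highest in oligodendrocyte-like cells: Rps27a stood at 902, 941 and 872 there and at 1174, 1175 and 1257 in endothelial-like cells.

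Rpl22l1 (chr3:28805436-28807424, plus strand) was highest in mural cells, with family-scaled levels of 10070, 12110 and 11420 in vascular smooth muscle-like and 9435, 11810 and 9816 in pericyte-like cells. These 2 classes overlapped, and oligodendrocyte-like cells were lowest at 3662, 4054 and 3999. Outside astrocyte-like cells, the CPM of Rpl22l1 spanned 127 in QS oligodendrocyte-like to 825 in HS vascular smooth muscle-like cells, and that of Rpl22 itself 215 to 613. Rpl5 and Rpl11, which enter the large subunit together, did not share a highest class in CPM: Rpl5 reached 505, 531 and 518 in vascular smooth muscle-like cells and Rpl11 reached 965, 847 and 825 in microglia-like and 848, 826 and 881 in endothelial-like cells.

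The members that differed most between classes on this scale were Rps19bp1 and Rpl7l1, neither of them a core ribosomal protein. The family-scaled level of Rps19bp1 was 1646, 1888 and 1710 in astrocyte-like cells, 3.35 times the median class. That of Rpl7l1, a nucleolar relative of Rpl7, was 2929, 3008 and 3275, or 3.21 times. In CPM they were not high there: Rps19bp1 stood at 19.8, 19.9 and 15.1 and Rpl7l1 at 35.3, 31.7 and 28.8. Their CPM was not reduced in astrocyte-like cells to the extent of the other members.

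**Figure D2:**
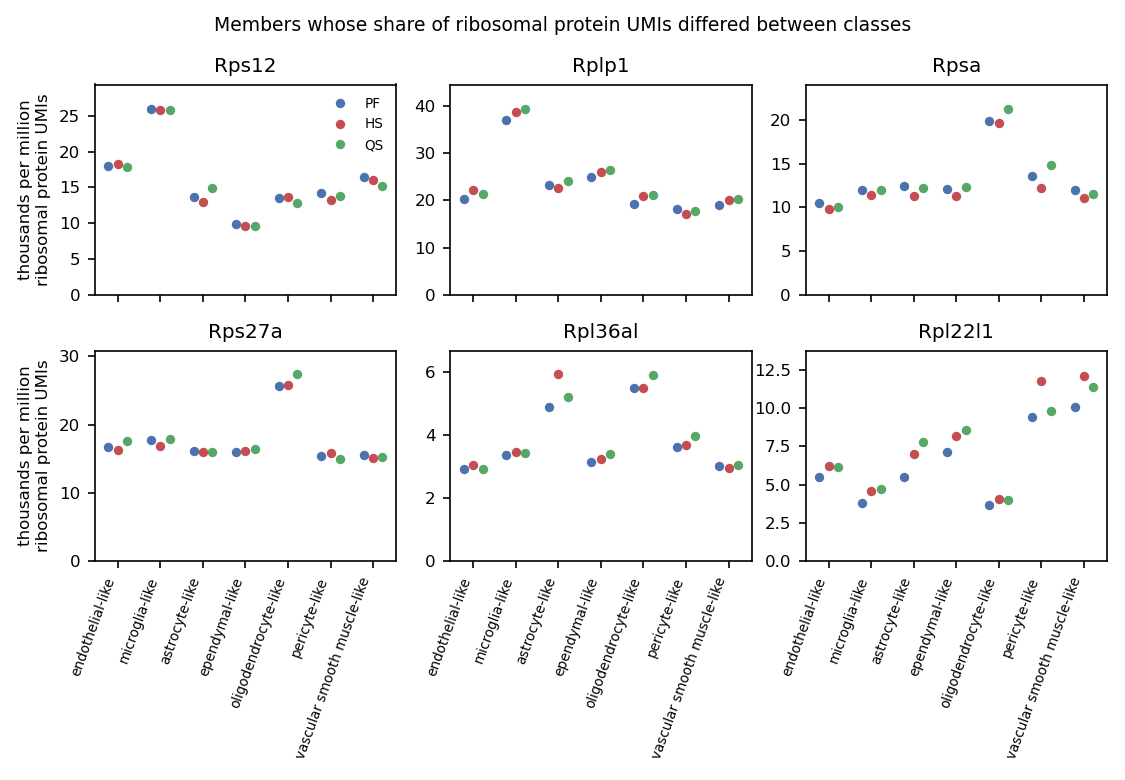
Family-scaled level of 6 members (UMIs per 1000000 ribosomal protein UMIs, shown in units of 1000, axes from 0) in 7 classes, with 1 point per library. Rps12 and Rplp1 are highest in microglia-like cells, Rpsa and Rps27a in oligodendrocyte-like cells, Rpl36al in oligodendrocyte-like and astrocyte-like cells, and Rpl22l1 in vascular smooth muscle-like and pericyte-like cells.

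Heat exposure at matched food intake was addressed by setting HS against PF. With 1 library on each side no test was possible, and "higher" and "lower" describe these libraries: a member was called in a class where the ratio of the lower to the higher CPM was at most 0.8 and the interval excluded 1. The members were near the PF level in most classes. Of 571 member-by-class pairs, 8 were higher (1.4%) and 14 lower (2.45%) in HS, against 3.28% and 3.86% of 49071 pairs over all genes, or 7.14% in either direction. The summed ribosomal protein CPM was 1.025 times PF (1.023 to 1.027) in endothelial-like, 1.004 (1.001 to 1.008) in ependymal-like, 1.04 (1.035 to 1.046) in oligodendrocyte-like, 1.015 (1.005 to 1.026) in pericyte-like and 1.014 (1.008 to 1.021) in vascular smooth muscle-like cells. It was lower in microglia-like cells at 0.914 (0.911 to 0.917) and in astrocyte-like cells at 0.876 (0.866 to 0.887).

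Rps29, a zinc-binding protein of the small subunit (chr12:69157722-69159186, minus strand), held 5 of the 8 pairs that were higher in HS. In endothelial-like cells it reached 1091 CPM with HS and 837 with PF, a ratio of 1.3 (1.28 to 1.32). In pericyte-like cells it stood at 574 against 430 (1.34, 1.22 to 1.47), in vascular smooth muscle-like cells at 936 against 738 (1.27, 1.2 to 1.34), in oligodendrocyte-like cells at 465 against 366 (1.27, 1.21 to 1.33) and in ependymal-like cells at 634 against 506 (1.254, 1.21 to 1.3). Microglia-like cells stood at 1469 against 1258 and astrocyte-like cells at 160 against 157, so HS was above PF in 7 of 7 classes. The other 3 pairs were Rpl35, which lines the exit of the peptide tunnel, in endothelial-like (388 against 301 CPM) and oligodendrocyte-like cells (170 against 130), and Rpl22l1 in pericyte-like cells (463 against 365). Over all genes, 2.22% were higher in endothelial-like, 2.17% in ependymal-like, 2.7% in oligodendrocyte-like, 4.48% in pericyte-like and 4.77% in vascular smooth muscle-like cells, where 2, 1, 2, 2 and 1 members were.

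After Rps29, the highest medians of the log2 ratio over classes were those of Rps28 (0.28), Rps27 (0.23), Rpl37 (0.22) and Rpl38 (0.22). Low medians were those of Rpl29 (-0.15), Rps16 (-0.12), Rps15 (-0.12) and Rps3 (-0.11), which were below 0 in 7 of 7 classes, all under the size set for a call outside astrocyte-like cells. Of the 14 pairs that were lower in HS, 13 lay in astrocyte-like cells, among them Rps4x (119 against 160 CPM, 0.745, 0.667 to 0.831). They made up 13 of 81 measured members, against 8.33% of all genes in that class. The last was Rpl7l1 in vascular smooth muscle-like cells, at 42.2 against 53.6 CPM, where 3.32% of all genes were lower.

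The comparison of QS with PF addressed recovery against the intake-matched control, and shares the PF library with the comparison before it. Of 572 pairs, 1 was higher in QS and 78 lower (13.6%), against 3.36% and 5.86% of 49106 pairs over all genes, or 9.22% in either direction. The pairs were unevenly spread: 67 lay in astrocyte-like, 8 in microglia-like and 3 in oligodendrocyte-like cells, and 0 in the other 4 classes, where 3.44% (endothelial-like), 3.84% (ependymal-like), 5.72% (pericyte-like) and 7.44% (vascular smooth muscle-like) of all genes were lower. The 1 pair that was higher was Rpl10, which joins the large subunit late in its assembly (chrX:74270812-74273135, plus strand), in vascular smooth muscle-like cells at 1047 against 833 CPM (1.26, 1.19 to 1.33), where 4.09% of all genes were higher. By the median log2 ratio over classes, Rpl10 (0.24), Rpl4 (0.23), Rps23 (0.19), Rpl26 (0.15) and Rpl22l1 (0.14) stood highest. Rpl38 (-0.3), Rpl39 (-0.26), Rps28 (-0.25), Rps15 (-0.24) and Rpl23a (-0.24) stood lowest and were below 0 in 7 of 7 classes.

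In astrocyte-like cells the summed ribosomal protein CPM in QS was 0.731 of PF (0.722 to 0.741). The 67 members that were lower made up most of the 81 measured, where 12.1% of all genes in these cells were lower, and 80 of 81 lay below PF. The small subunit stood at 0.712 (0.698 to 0.727) and the large subunit at 0.742 (0.729 to 0.754). Rps16 stood at 220 CPM in PF, 173 in HS and 130 in QS, a QS/PF ratio of 0.592 (0.535 to 0.654). Rps28 followed the order with 96.2, 85.7 and 57.5 CPM (0.597, 0.513 to 0.696) and Rps15 with 130, 101 and 79.8 (0.612, 0.537 to 0.696). In these the HS library lay between the others. Members near the PF level included Rpl10 (97 CPM in PF and 91.9 in QS), Rpl4 (41.2 and 37) and Rpl22l1, which was the 1 member above PF (66.4 and 68.7, a ratio of 1.04, 0.881 to 1.22).

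Several other gene lists of the translation apparatus had lower levels in QS astrocyte-like cells, where 12.1% of all genes were lower. Fau, which encodes a small-subunit protein, stood at 198 against 270 CPM (0.732, 0.672 to 0.798) and Rack1, a scaffold protein on the small subunit, at 52.6 against 61.5 (0.855, 0.718 to 1.02), the first of them called. The list of elongation factors had a median of -0.32 with 3 of 7 lower and 0 higher, namely Eif5a (40.4 against 66.4 CPM), Eef1d (63.6 against 90.8) and Tpt1 (260 against 376), which the list holds although it encodes the translationally controlled tumour protein and is not an elongation factor itself. The initiation factors had a median of -0.17, with 8 of 26 lower and 0 higher. Of the mitochondrial ribosomal proteins, which belong to a separate ribosome, 27 of 61 were lower and 0 higher, with a median of -0.33. Ribosome biogenesis genes had a median of -0.09 with 2 of 16 lower, and regulators of ribosomal protein translation such as Mtor and Larp1 -0.04 with 0 of 12, shares near or below that of all genes. The median over all genes in these cells was -0.04. Outside the family it was -0.37 under 300 coding bases, -0.31 from 300 and -0.19 from 450. From 750 bases it was -0.08, and from 1500 bases 0.04. Members stood at -0.59, -0.43, -0.42 and -0.43 in the ranges below 1500 bases. Short genes outside the family were thus lower in these cells too, and members lower still. The lists were not set against genes of like length.

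The summed markers of other classes moved in the same direction in astrocyte-like cells. The 16 marker lists of other classes summed to 1664 CPM for PF, 1485 for HS and 1309 for QS. The largest in PF was the oligodendrocyte precursor list at 418 CPM, against 7.09 in endothelial-like and 9.67 in microglia-like cells. The sum therefore need not be RNA of other cells throughout. Of the 16, 10 were lowest in QS, 4 lowest in HS and 2 lowest in PF. Endothelial markers alone stood at 346, 289 and 226 CPM. Haemoglobin genes did not follow this order, at 1310, 55.2 and 159 CPM. Astrocyte markers themselves stood at 10640, 10660 and 10470 CPM. When 5% of each class sum was subtracted in the proportions of the whole library, as an allowance for free RNA, the QS/PF log2 ratio of the sum went from -0.45 to -0.57, and with a gate that allowed less RNA of other classes it was -0.51. With each cell given equal weight it was -0.37 and the number of members lower was 51. The subtracted library profile held 6.21% ribosomal protein UMIs in PF and 5.6% in QS, more than the astrocyte-like share. Taking similar amounts from both lower shares by itself moves their ratio away from 1, so this setting cannot show what free RNA contributed. The part of RNA of other cells in the QS/PF ratio was not tested. Among astrocyte-like cells with 500 to 2000 UMIs the share for PF was 1.12%, that for HS 1.08% and that for QS 1.02%. Among those with 2000 to 5000 UMIs, the most numerous, it was 1.13%, 0.975% and 0.863%, and among those with 5000 to 10000 UMIs 1.21%, 1.11% and 0.859%. QS was lowest and PF highest in each of these ranges.

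In microglia-like cells the sum was 0.895 of PF (0.893 to 0.898), close to the HS value of 0.914, and 8 of 81 members were lower against 3.76% of all genes. They were Rps27l, Rps15, Rpl41, Rps26, Rpl23a, Rpl38, Rpl37 and Rpl39. Rpl41 stood at 1186 CPM in PF, 1093 in HS and 897 in QS. In oligodendrocyte-like cells the sum was 0.908 of PF (0.904 to 0.912). Rps26 (291 against 375 CPM), Rpl38 (273 against 353) and Rpl37 (317 against 423) were lower there, against 4.16% of all genes. By depth, the share in these cells was 3.04% in PF and 3.55% in QS at 500 to 2000 UMIs, and 3.89% and 3.22% at 2000 to 5000. It was 3.84% and 3.71% at 5000 to 10000 UMIs, and 3.08% and 2.86% from 10000. With at most 25000 UMIs per cell the log2 ratio of the sum went from -0.14 to -0.09. The sum in endothelial-like, ependymal-like, pericyte-like and vascular smooth muscle-like cells stood between 1.008 and 1.015 of PF.

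**Figure D3:**
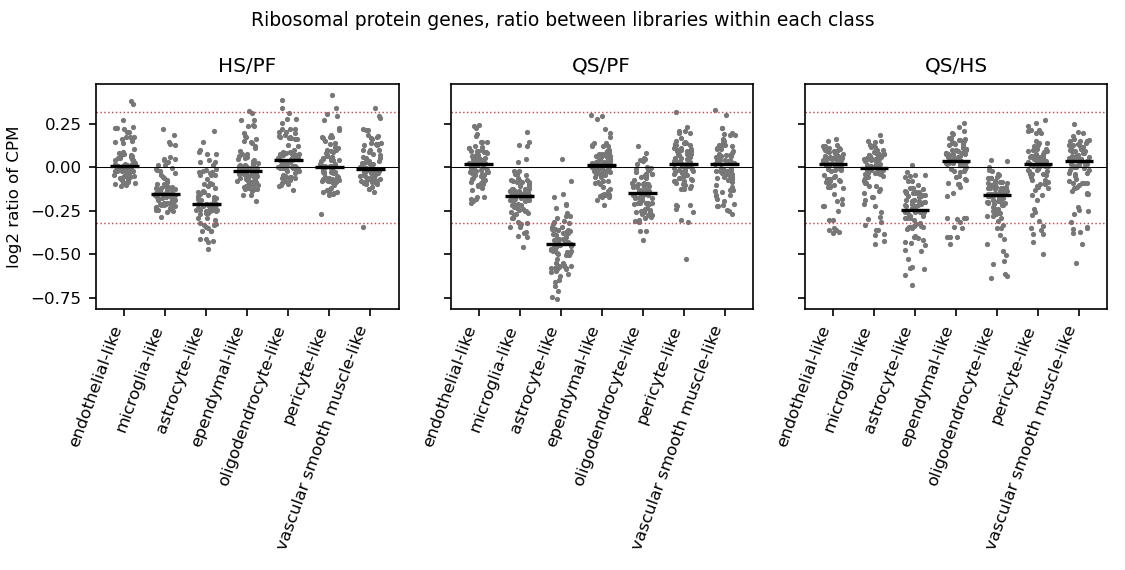
Log2 ratio of CPM of each measured member (grey points, placed at random across the width of the class) in 7 classes for HS/PF, QS/PF and QS/HS, with the median as a black bar and the size set for a call as dotted red lines. Astrocyte-like medians are the lowest of the 7 classes in each panel, at -0.21, -0.44 and -0.25, and the ependymal-like, pericyte-like, endothelial-like and vascular smooth muscle-like medians lie within 0.04 of 0.

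Recovery was set against exposure by comparing QS with HS. It shares a library with each of the comparisons above. Of 572 pairs, 0 were higher in QS and 70 lower (12.2%), against 5.28% and 7.04% of 48864 pairs over all genes, or 12.3% in either direction. The lower pairs were spread over all 7 classes, with 25 in astrocyte-like, 13 in oligodendrocyte-like, 7 each in microglia-like, pericyte-like and vascular smooth muscle-like, 6 in ependymal-like and 5 in endothelial-like cells. Of all genes, 8.35% were lower in astrocyte-like, 4.34% in oligodendrocyte-like, 4.45% in microglia-like, 7.12% in pericyte-like, 11.2% in vascular smooth muscle-like, 7.34% in ependymal-like and 6.41% in endothelial-like cells. In pericyte-like, vascular smooth muscle-like, ependymal-like and endothelial-like cells, the share lower among 82 measured members was near or below that of all genes. The summed CPM stood at 0.991 of HS in endothelial-like, 0.979 in microglia-like, 1.004 in ependymal-like, 0.994 in pericyte-like and 0.997 in vascular smooth muscle-like cells. It was 0.835 (0.825 to 0.845) in astrocyte-like and 0.873 (0.869 to 0.877) in oligodendrocyte-like cells.

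The members lowest in QS against HS were the same small set in class after class. Rps28, Rpl37, Rps27 and Rps21 were lower in 7 of 7 classes and Rpl38 and Rpl39 in 6 of 7. Rps28, which lies near the exit of the message from the small subunit, stood at 468, 565 and 434 CPM in PF, HS and QS endothelial-like cells, and its QS/HS ratio there was 0.769 (0.751 to 0.787). In vascular smooth muscle-like cells it stood at 501, 616 and 421 CPM, a ratio of 0.684 (0.631 to 0.74). Rpl37, which has a zinc finger, stood at 954, 984 and 734 CPM in microglia-like cells (QS/HS 0.746, 0.726 to 0.766) and at 423, 492 and 317 in oligodendrocyte-like cells (0.643, 0.614 to 0.673). Rps21 stood at 813, 920 and 725 CPM in ependymal-like cells (0.787, 0.764 to 0.811) and at 683, 850 and 555 in oligodendrocyte-like cells (0.653, 0.631 to 0.675). In each of these the HS library was highest and the QS library lowest. A ratio of 1.5 or more in size was reached by 5 pairs in QS/HS, namely Rps21, Rpl37 and Rpl38 in oligodendrocyte-like and Rps21 and Rpl37 in astrocyte-like cells, against 2.81% of all genes. In QS/PF 12 pairs reached it, all in astrocyte-like cells, against 2%, and in HS/PF 0 against 1.32%.

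At the other end, Rpl10 stood at 665, 702 and 786 CPM in PF, HS and QS endothelial-like cells and at 990, 952 and 1084 in microglia-like cells. Its median log2 ratio over classes was 0.24 for QS/PF and 0.19 for QS/HS. Rpl3, which reaches toward the peptidyl transferase centre, had 0.15, Rpl29 0.12, Rps3 0.11 and Rpl17 0.11 for QS/HS, none of them called in any class.

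What the low set shared, and the rule for members did not use, was a short coding region. The grouping by coding length was chosen after these values were seen and is a description. Under 300 coding bases there were 12 members, of which Rps27rt and Rpl39l were too low to measure and 10 were measured: Rpl41 (75 bases), Rpl39 (153), Rps29 (168), Rps28 (207), Rpl38 (210), Rps21 (249), Rps27 and Rps27l (252), Rpl37a (276) and Rpl37 (291). In QS against HS, 70 of their 70 pairs had a log2 ratio below 0 and 51 were lower, whereas of 502 pairs of longer members 259 lay below 0 and 19 were lower. The class medians of the short members ran from -0.33 in endothelial-like to -0.55 in astrocyte-like cells. In HS against PF the short members leaned the other way, with 54 of 70 pairs above 0 and a median of 0.21 over classes, but with 5 called, all of them Rps29. In QS against PF, 67 of 70 lay below 0 and 17 were lower.

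In library totals, Rps29 stood at 806 CPM in PF, 939 in HS and 743 in QS, Rps27 at 738, 837 and 603, Rpl38 at 648, 729 and 531, Rpl37 at 776, 851 and 614, and Rps28 at 466, 524 and 374. Rpl41, the shortest of all, had no excess in HS, with 1576, 1584 and 1230 CPM, and neither had Rps27l, with 177, 167 and 143. The 10 measured short members were therefore not uniform in HS against PF, but each of the 10 was lowest in QS. Being lowest in QS did not set them apart, since many longer members were too, such as Rps16 (1243, 1091 and 1040 CPM) and Rpl32 (776, 701 and 674). Others were not, such as Rpl10 (667, 654 and 697). Library totals also depend on the mix of cell classes.

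Across the 81 members measured in all classes, the median log2 ratio was related to coding length with Spearman's rho of 0.76 in QS/HS, 0.53 in QS/PF and -0.42 in HS/PF. These describe genes counted in the same 3 libraries, which are not independent. With transcript length rho was 0.56, 0.47 and -0.29, in the same order. The relation to GC content of the transcript was weak, with rho of 0.05, -0.17 and -0.16, and so was that to level, with 0.21, 0.11 and -0.04.

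**Figure D4:**
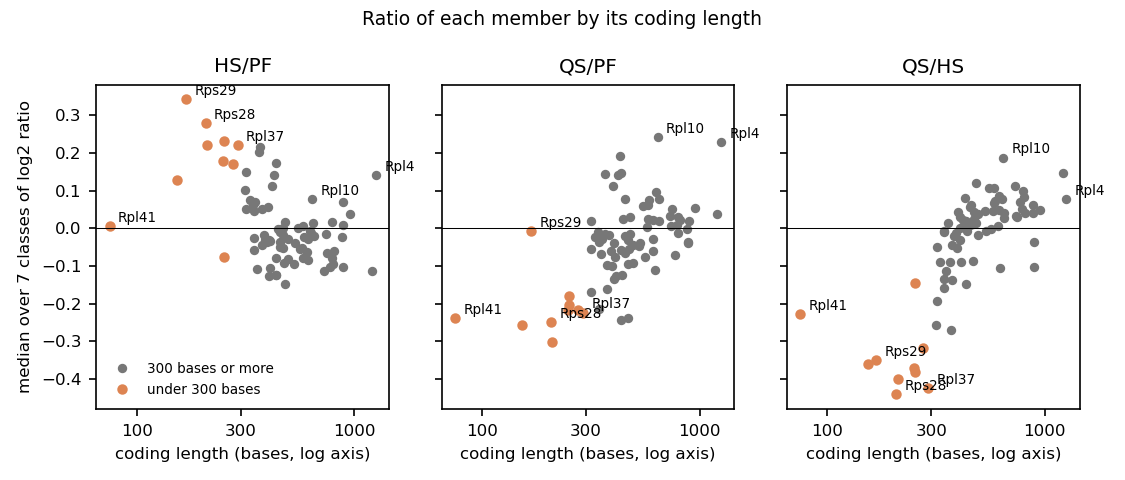
Median log2 ratio of CPM over 7 classes for 81 members against coding length in bases (log axis), with members under 300 bases in orange. In QS/HS all 10 orange points lie below 0, from -0.14 for Rps27l to -0.44 for Rps28, and Rpl10 lies highest at 0.19.

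Genes outside the family were sorted in the same way. Other genes under 300 coding bases (255 in QS/HS) had a median over classes of -0.03, with 13.2% of their pairs lower against 72.9% for the short members. By the length of the whole transcript, the medians of the shortest members and of other genes lay close together. Members with a transcript under 500 bases (18) had a median of -0.13 in QS/HS, and the 85 other coding genes of that length -0.13. Class medians of those other genes were below 0 throughout, from -0.3 to -0.05. The 18 members were not uniform in their medians over classes. Those under 300 coding bases ran from -0.44 for Rps28 to -0.14 for Rps27l. The longer ones ran from -0.26 for Rpl36 to 0.04 for Rps10. From 500 to below 750 bases the medians were 0.01 for 24 members and 0.02 for 301 other genes, and from 750 to below 1000 bases 0.07 and 0.05. In HS/PF the medians under 500 bases were 0.06 for members and 0.02 for other genes, and in QS/PF -0.08 and -0.1. A lower level of very short transcripts in QS was thus present outside the family too. Transcript lengths are those of 1 annotated transcript per gene, which need not be the form present in these cells. Some short members had longer annotated transcripts and still lay below the medians of their bins in QS/HS. They were Rpl37 (835 bases) at -0.42, Rpl39 (612) at -0.36 and Rpl37a (558) at -0.32. Whether the recovery of short molecules differed between the libraries was not tested, and with 1 library per group it cannot be told apart from the condition.

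**Figure D5:**
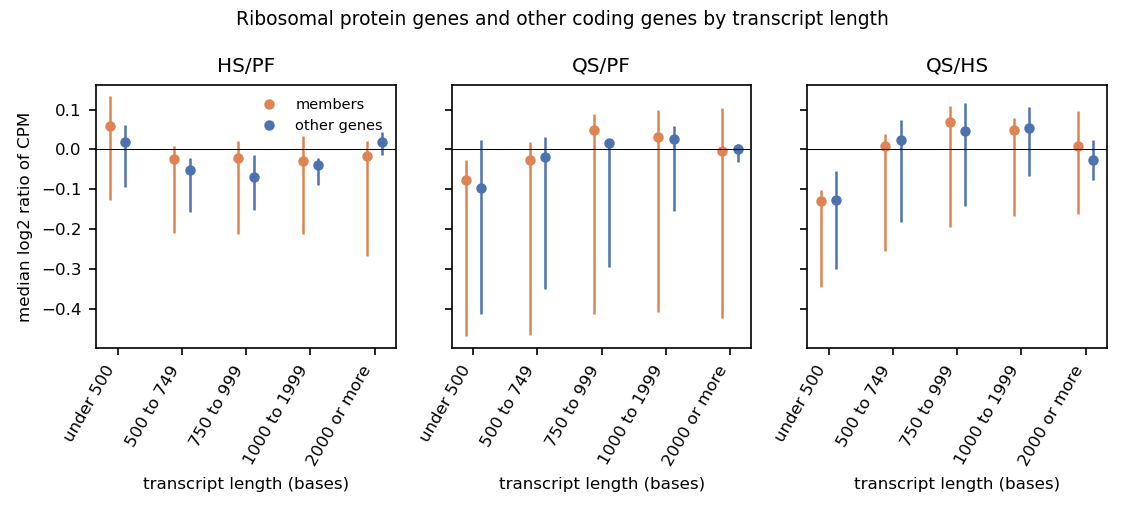
Median log2 ratio of CPM by transcript length in bases, for members (orange) and other protein-coding genes (blue), in HS/PF, QS/PF and QS/HS. Points are medians over 7 classes and lines run from the lowest to the highest class; in QS/HS the bin under 500 bases is at -0.13 for both sets, and the bins from 500 to below 2000 bases lie at or above 0.

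A terminal oligopyrimidine tract at the listed start was present in some short members and absent from others. Rps27, Rpl38 and Rps21 carry it at the listed start, as the windows above show. Rps28, Rpl37, Rpl39, Rpl41, Rpl37a and Rps27l do not, although Rpl39 and Rps27l have one within 10 bases. Rps29 had no entry in the promoter table. The listed start need not be the one used in these cells, and whether ratios differed with the tract was not tested.

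Few pairs of initiation factors, elongation factors and biogenesis genes were called. Over 7 classes in QS/HS, 4 of 188 pairs of initiation factors were higher and 2 lower, 1 of 49 pairs of elongation factors were higher and 2 lower, and 2 of 152 pairs of biogenesis genes were higher and 9 lower, against 5.28% and 7.04% over all genes. Regulators of ribosomal protein translation had 3 of 88 higher and 7 lower. Among them, Myc, a transcription factor known to drive ribosomal protein genes, stood at 60.3 CPM in QS microglia-like cells against 36.8 in PF and 36 in HS (QS/PF 1.64, 1.47 to 1.83), while the ribosomal protein sum of those cells was 0.895 of PF. Rps6ka3, a kinase gene, stood at 364 CPM in QS and 549 in HS endothelial-like cells (0.663, 0.646 to 0.679). In HS/PF, 0 of 455 pairs of mitochondrial ribosomal proteins were higher and 18 lower, and host genes of small nucleolar RNAs had 0 of 41 higher and 2 lower, against 3.28% and 3.86%.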

How the data were processed

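The authors deposited UMI counts per gene and cell barcode from 10x Genomics 3′ libraries (version 3 chemistry, per the labels' protocols). Cell Ranger and the mm10 build are named for these counts, with version 5.0.0 in the submitters' processing notes, beside Seurat 3.1.2, and 7.0.1 per the file headers. Nothing in the sources used here tells whether intronic reads were counted or how reads that match several genes were treated.

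Barcodes with at least 500 UMIs, 200 genes and at most 20% mitochondrial UMIs were kept. A cell was assigned to the class with the highest share of its markers detected, with at least 3 markers and with the marker UMIs of every other class at most 0.25 of its own. This scoring was chosen after the files had been seen. Cells near that limit (0.2 to 0.25 inside, 0.25 to 0.3 outside) numbered 386 and 234 in PF, 434 and 278 in HS and 336 and 211 in QS. No doublet caller was run, since barcodes with mixed markers were left out (2076, 2105 and 1742). Levels are given for 13 classes with 15 or more cells per library, a minimum chosen after the data were seen, and compared in 7 with at least 100.

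UMIs were summed per class and library and given as CPM. A pair of a gene and a class was measured with a mean of at least 20 CPM, at least 30 UMIs together and 1 in each library. Shares carry Clopper-Pearson and ratios exact conditional binomial 95% intervals. Cells are not replicates, so no test was made. Coding and transcript lengths are those of the shortest complete best-ranked coding transcript in GENCODE M21 (GRCm38). The ratio script was tested on simulated data. The 5 "-ps" rows that the symbol rule leaves out held at most 0.00347% of UMIs.

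The members, gene lists and tests were chosen with earlier results of these data known. Named genes are the 5 highest and 5 lowest members by level and by median ratio in each comparison, the 10 with the largest class difference, the paralogues, stalk, Rpl5 and Rpl11, the ubiquitin fusion, and up to 3 members of each list. Some genes that this rule picks are not reported here. Others, such as Rpl35, Rps4x and Rps26, were named after their values were seen. Python 3.11.15, NumPy 2.4.6, SciPy 1.17.1, pandas 2.3.3 and matplotlib 3.10.9 were used.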

Additional observations from a re-analysis of the deposited data

How the results depend on the processing

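With calls only from a ratio of 1.5, the pairs of a member and a class went from 22, 79 and 70 (HS/PF, QS/PF, QS/HS) to 0, 12 and 5, against 1.32%, 2% and 2.81% of all genes. The members lower in astrocyte-like cells went from 13, 67 and 25 to 0, 12 and 2, and the lower pairs among members under 300 coding bases to 5 in QS/PF and 5 in QS/HS. The summed ribosomal protein CPM had median log2 ratios over classes of 0.021 (HS/PF), 0.012 (QS/PF) and -0.014 (QS/HS), all near 0 and none called. They were -0.008 (QS/PF) and -0.009 (QS/HS) with at most 25000 UMIs per cell, 0.009 (HS/PF) with at most 10% mitochondrial UMIs, and 0.006 (QS/PF) and -0.017 (QS/HS) without ribosomal protein and mitochondrial UMIs in the denominator. With equal weight per cell they were -0.016 (QS/PF) and -0.024 (QS/HS), with 5% free RNA subtracted 0.021 (QS/PF) and -0.011 (QS/HS), and with other-class markers held to 10% of the own 0.005, -0.033 and -0.024. Members lower in astrocyte-like cells in QS/HS numbered 16 with equal weight and 42 with free RNA subtracted, and in HS/PF 22 with free RNA subtracted, where the lower pairs of short members in HS/PF became 2. Calls with equal weight per cell rest on the size of the ratio alone, without an interval. Except for the fold, the cause was not tested. The median ratios of the named members were recomputed under the other settings. The 8 medians that reached the size set for a call kept their sign in 64 of 64 recomputed values. The 88 other medians kept it in 674 of 704. The gate at 10% and the settings for single classes, coding length and class differences were added after seeing the data. Astrocyte-like cells stayed lowest in 3 of 3 libraries under each setting run. No paired analysis was possible because each group has 1 library. Intervals cover counting error only, so a ratio within the spread of animals, which is unknown here, cannot be told from a difference between conditions.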
